A study of Mus musculus with 46 samples.

Results

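Dense clusters of constant RXR regions are stretches of the mouse liver genome in which RXR was called in every liver at several neighbouring places. Peaks of all 14 RXR lists that shared at least 1 bp were merged on chromosomes 1 to 19, which gave 73832 regions. Of these, 12200 (16.5%) had a peak in all 14 lists and are called constant here. Constant regions separated by gaps of at most 12.5 kb were joined, and joined groups of 4 or more were kept as clusters. This left 876 clustered regions, or 7.18% of the constant regions, in 195 clusters. The other 11324 constant regions serve for comparison. Members were chosen by the presence and spacing of RXR peaks, so the number, length and spacing of clustered regions are descriptions of the choice and carry no test. The CEBP lists took no part in the choice.

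The study used livers of individual male CD-1 mice that received 3 mg/kg TCPOBOP or vehicle (DMSO in corn oil) and were collected 27 h or 3 h later. TCPOBOP activates the nuclear receptor CAR. At 27 h, 4 TCPOBOP and 4 vehicle livers of mice aged 8 weeks were each used for RXRa (labelled RXR), CEBPa and CEBPb. At 3 h, RXR was measured in 3 TCPOBOP and 3 vehicle livers of mice aged 8 weeks, and both CEBP factors in 3 TCPOBOP and 3 vehicle livers of other mice aged 7 weeks. The mice are called wild-type in the design text, and no group carried a mutated allele or a transgene. Each value below comes from whole liver, which holds hepatocytes and other cells, and no marker of cell type can be checked in peak lists.

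RXRa is a nuclear receptor that binds DNA as a pair with other nuclear receptors, among them CAR, PPARa, FXR and LXR, which control drug, lipid and bile acid metabolism in hepatocytes. One RXR-bound place may therefore serve several receptor pairs. CEBPa and CEBPb are basic leucine zipper factors that recognise the same kind of DNA site; CEBPa is a factor of the mature hepatocyte, and CEBPb also takes part in liver responses to injury and inflammation. Regulatory regions of genes that define a cell type often lie in groups along the chromosome and are bound by many of its transcription factors.

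The 42 immunoprecipitated lists held 11899 to 55513 peaks each, and the RXR lists held 22117 to 52727. The number of reads behind a list is unknown, so RXR or CEBP signal too weak to be called cannot be told from none. Input chromatin of 4 livers at 3 h gave peaks at 7 of the 876 clustered regions (0.799%), against 300 of the 11324 other constant regions (2.65%). All 7 came from 1 vehicle input library. Positions refer to mm9, for which no gene annotation was used here, so regions are named by position.

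Most clusters held the minimum of 4 regions. There were 139 clusters of 4, 29 of 5, 17 of 6, 8 of 7, 1 of 8 and 1 of 9. Just outside the limit lay 386 groups of 3, with 1158 regions, and 3255 merged regions had a peak in 13 of the 14 lists. Clusters were 7451 to 54824 bp long, with a median of 23220 bp and quartiles of 17655.5 and 28963.5 bp. Together they spanned 4.67 Mb, of which clustered regions covered 12.6%. A cluster is thus mainly the DNA between its regions.

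The 681 gaps between neighbouring members ranged from 143 to 12489 bp, with a median of 5773 bp and quartiles of 3342 and 8664 bp. Gap lengths were spread over the whole allowed range and had no single preferred length. Of the 681 gaps, 34 (4.99%) were at most 500 bp and 59 (8.66%) at most 1000 bp. Gaps of at most 1000 bp occurred in 53 clusters. A further 111 gaps (16.3%) were over 10 kb. The longest gap joined was 12489 bp, the shortest gap left unjoined was 12514 bp, and the shortest between a cluster and the next constant region was 12616 bp. In 22 cases the next constant region lay between 12.5 and 15 kb from a cluster. Midpoints of neighbouring members were a median of 6508 bp apart, against 46112.5 bp for neighbouring constant regions of all kinds.

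**Figure D1:**
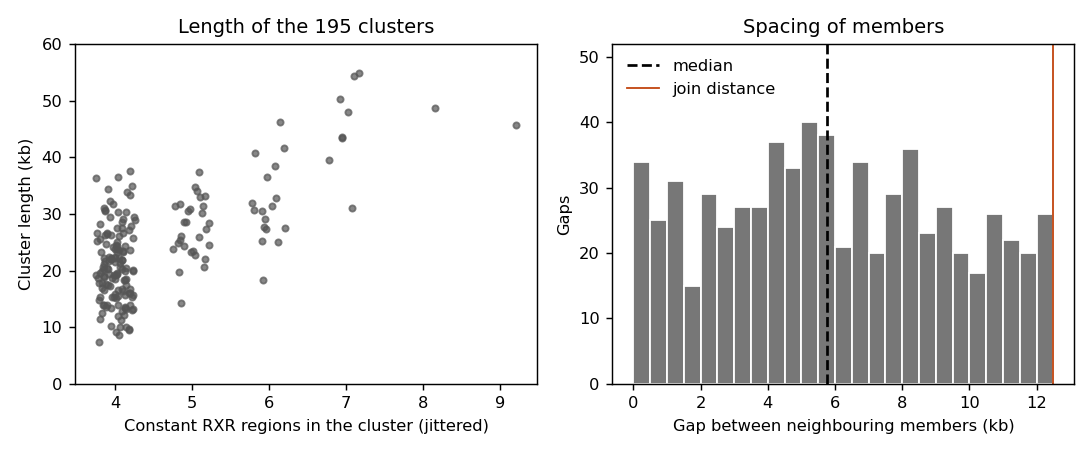
Left: length in kb of each of the 195 clusters (points) against its number of constant RXR regions, with a small sideways shift so that points do not overlap. Right: number of gaps between neighbouring members per 0.5 kb of gap length, with the median of 5773 bp (dashed) and the join distance of 12.5 kb (red line). Clusters of 4 were 7451 to 37650 bp long, and the gaps fill the whole range up to the join distance.

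Clusters lay on all 19 chromosomes analysed. Chromosome 11 held 25 clusters with 120 members, which were 13.2% of its 911 constant regions. Chromosome 13 held 3 clusters with 12 members, or 2.19% of its 548 constant regions. These were the highest and the lowest shares among the chromosomes.

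The merged regions were narrower in clusters, with a median of 605.5 bp against 657 bp at other constant regions. The same held within single libraries, where RXR peaks covered a median of 358 to 442 bp of a member in the 7 TCPOBOP livers and 357 to 468.5 bp in the 7 vehicle livers. At other constant regions the medians were 369 to 463 bp in TCPOBOP livers and 367 to 502 bp in vehicle livers. In each of the 14 livers the median was lower at members. Peak width is the only value per peak in these lists, and it is not a measure of binding strength. The median width per region over the livers was 401 bp at members (quartiles 339 and 520.1 bp) and 421 bp at other constant regions (quartiles 348 and 543.5 bp), so the distributions overlapped broadly.

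The cluster with the most members was chr11:49971825-50017520, with 9 members over 45.7 kb. Its second member, chr11:49981647-49982482, had CEBPa and CEBPb peaks in all 14 libraries of each factor. At 5 of the 9 members neither CEBP factor was called in any library. The remaining 3 had CEBPa peaks in 1, 2 and 5 libraries and CEBPb peaks in 5, 1 and 8. A single constant site of both CEBP factors thus sat beside RXR regions without any CEBP call, within the same 45.7 kb.

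The cluster chr11:79554197-79602956 held 8 members over 48.8 kb and looked different. None of its members lacked CEBP peaks altogether, and 2 had both factors in all 14 libraries. The cluster chr2:157888752-157919707 held 7 members over 31.0 kb, with both factors in all 14 libraries at 2 of them. Its second member had a CEBPa peak in 0 and a CEBPb peak in 1 of the 14 libraries. Its gaps ran from 980 to 12061 bp.

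**Figure D2:**
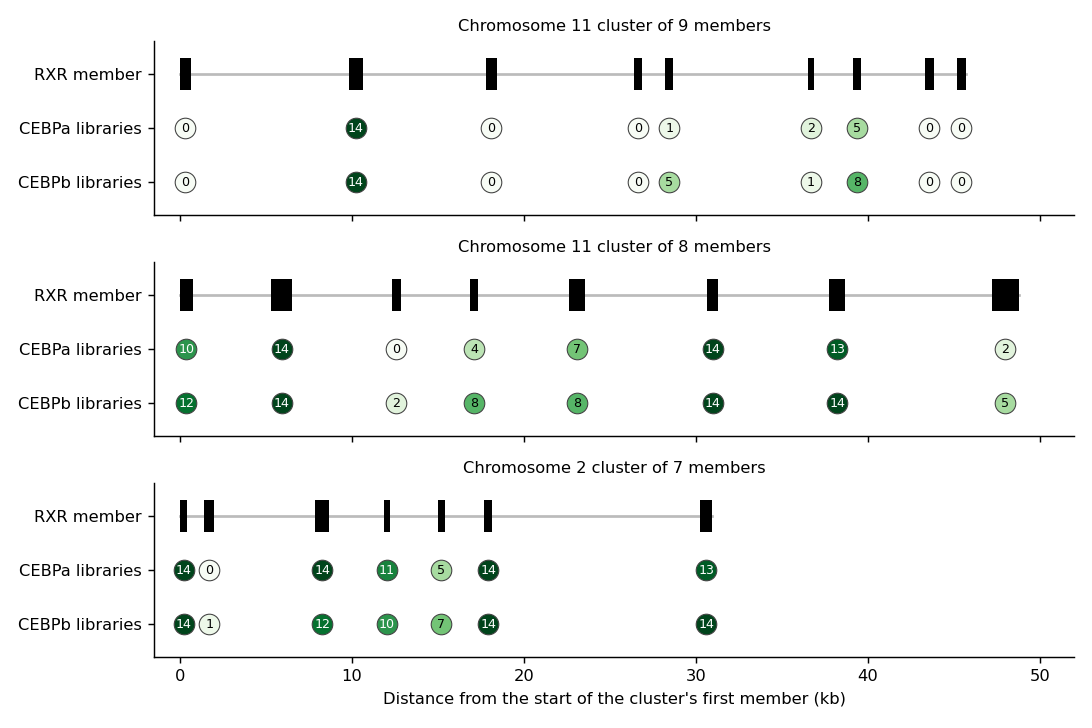
The 3 clusters with the most members, drawn to scale by distance in kb from the start of the first member. Black blocks are constant RXR regions, and the circles under them give the number of the 14 CEBPa and of the 14 CEBPb libraries with a peak there (darker green for more). In the 9-member cluster 1 region has 14 libraries of both factors and 5 have none.

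The other 7 of the 10 clusters with the most members each held 7. They were chr15:88667553-88707083 (39.5 kb), chr11:120328358-120371841 (43.5 kb), chr17:29535916-29579512 (43.6 kb) and chr16:24043775-24091698 (47.9 kb), and the 3 longest clusters of all, chr18:85041158-85091467 (50.3 kb), chr8:73157750-73212023 (54.3 kb) and chr11:57769492-57824315 (54.8 kb). The last had both factors in all 14 libraries at 2 members and no CEBP peak at 3. In 5 of the other 6, exactly 1 member had both factors in all 14 libraries. The exception was chr11:120328358-120371841, where no member had either factor in all 14 libraries and 4 members had no CEBP peak.

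The tightest cluster by its median gap was chr7:31138242-31145692, with 4 members in 7451 bp. Its gaps were 208, 3916 and 234 bp, so that it consisted of 2 close pairs, and its members covered 41.5% of its length. One member, chr7:31138242-31138741, had no CEBP peak in any library, and its neighbour 208 bp away had CEBPa in 4 and CEBPb in 8 libraries. The next were chr11:115296148-115310915, with a median gap of 553 bp, and chr2:32263919-32275304, with 576 bp. In the chromosome 11 cluster no member had either factor in all 14 libraries, while 2 of 4 members had both in the chromosome 2 cluster.

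CEBP factors were called at clustered regions about as often as at any constant RXR region. CEBPa had a peak in all 14 of its libraries at 213 members (24.3%), against 24.1% of all constant regions, and in none at 365 members (41.7%), against 40.6%. CEBPb had a peak in all 14 at 182 members (20.8%), against 20.2%, and in none at 305 members (34.8%), against 32.7%. Both factors were present in all 14 libraries at 163 members (18.6%, background 18.9%), and neither in any library at 292 members (33.3%, background 30.7%). Each of these shares is near its background. CEBPa was in all 14 and CEBPb in fewer than 14 or none at 50 members (5.71%, against 5.12% of all constant regions). The reverse held at 19 members (2.17%, against 1.295%). The remaining 352 members (40.2%, against 43.98%) had a CEBP peak in at least 1 library and neither factor in all 14. These 3 comparisons were not tested.

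Within a cluster, members with and without CEBP were mixed. At least 1 member with both factors in all 14 libraries was found in 118 clusters (60.5%), and at least 1 member without any CEBP peak in 156 clusters (80%). Both kinds were found together in 86 clusters (44.1%). These cluster counts have no background here and were not tested, so the mixing is not shown to be particular to clusters. In 0 clusters did all members have both factors in all 14 libraries, and in 0 clusters did all members lack CEBP. In 53 clusters no member had either factor in all 14 libraries, the 3 with the most members being chr11:120328358-120371841, chr10:80874678-80893089 and chr4:133101316-133126436. In the chromosome 10 cluster 5 of 6 members had no CEBP peak in any library.

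Neighbours inside a cluster resembled each other in their CEBP calls little more than any members did. Among 681 neighbouring pairs, 24 had both factors in all 14 libraries on both sides, and in 206 pairs 1 side did. The neighbour of a member with both factors had both factors in 18.9% of cases, against 18.6% of all members. The neighbour of a member without any CEBP peak also had none in 35.2% of cases, against 33.3% of all members. The 390 outermost members and the 486 inner members had similar shares, with both factors in all 14 libraries at 18.5% and 18.7% and neither factor in any library at 34.6% and 32.3%.

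Members with CEBP in all 14 libraries had wider RXR peaks. The median RXR width was 456 bp (quartiles 353 and 563.2 bp) at the 163 members with both factors and 382 bp (quartiles 330 and 464 bp) at the 292 members with neither. Other constant regions had medians of 435 bp with both factors and 400 bp with neither. The order of the 2 kinds was thus the same in and outside clusters, and this difference carries no test.

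The share of regions with a peak was compared liver by liver, since each library is its own background. CEBPa at 27 h was called at 36.8%, 37.4%, 37.2% and 31.6% of members in the 4 TCPOBOP livers, and at 36.4%, 39.95%, 37.3% and 40.1% in the 4 vehicle livers. Over these 8 livers the share was 37.1 ± 2.61% at members and 37.3 ± 2.99% at other constant regions (SD, n = 8). The difference of -0.161 ± 0.982 points was not past the threshold in an exact two-sided sign-flip test over livers (p = 0.656, adjusted over 4 combinations p = 0.656), and the share was higher at members in 3 of 8 livers.

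CEBPb at 27 h was called at 51.1%, 52.4%, 51.0% and 51.0% of members in TCPOBOP livers, and at 49.0%, 50.6%, 42.9% and 51.9% in vehicle livers. The mean was 50 ± 3.03% at members and 51.6 ± 3.14% at other constant regions (SD, n = 8). The difference of -1.58 ± 0.968 points passed the exact sign-flip test (p = 0.0156, adjusted p = 0.0417), with a lower share at members in 7 of 8 livers.

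CEBPa at 3 h was called at 38.6%, 43.2% and 38.1% of members in TCPOBOP livers, and at 42.5%, 42.9% and 38.01% in vehicle livers. The mean was 40.5 ± 2.54% at members and 41.8 ± 2.59% at other constant regions (SD, n = 6), and the difference of -1.21 ± 0.373 points was below 0 in 6 of 6 livers (exact sign-flip p = 0.0312, adjusted p = 0.0417). CEBPb at 3 h was called at 35.8%, 36.1% and 30.5% of members in TCPOBOP livers, and at 32.5%, 25.1% and 36.4% in vehicle livers. Here the mean was 32.7 ± 4.42% at members and 32.0 ± 4.31% at other constant regions (SD, n = 6), a difference of 0.775 ± 0.650 points in the other direction in 6 of 6 livers (exact sign-flip p = 0.0312, adjusted p = 0.0417).

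These differences are small, and the sign-flip test measures only how alike the livers are, since all livers share the same 876 regions. The exact 95% binomial interval of a share at members, which covers counting error only, was 47.8% to 54.5% for CEBPb in the first TCPOBOP liver at 27 h and wider than any of the 4 differences. With an overlap of at least 0.5 of the region or the peak, and with lists shortened to equal length by width, the differences were -1.13 and -1.21 points for CEBPa at 3 h and -1.45 and -1.51 points for CEBPb at 27 h, and their exact sign-flip p stayed at 0.0312 and 0.0156, while the adjusted p was 0.0625 for each. For CEBPb at 3 h they were 0.95 and 0.306 points, with an exact sign-flip p of 0.0625 and 0.344. The differences also varied with cluster size. The 556 members in clusters of 4 had a CEBPb peak at 27 h in 51.6% of cases on average over livers, against 51.6% of other constant regions, and the 320 members in clusters of 5 or more in 47.2%. For CEBPa at 3 h the shares were 42.5% in clusters of 4 and 37.1% in clusters of 5 or more. The sign of the differences changed with the join distance. With gaps of at most 6.25 kb all 4 differences were below 0, from -8.99 points for CEBPb at 27 h to -5.39 points for CEBPa at 27 h, and with gaps of at most 25 kb all 4 were above 0, from 1.97 to 2.66 points. In each of these settings all 4 passed the exact sign-flip test (adjusted p from 0.0156 to 0.0312), in opposite directions. The shorter distance kept far fewer members than 876, so the counting error of a share is larger there, and the sign-flip test does not measure it. At 3 h and a join distance of 12.5 kb, leaving out any 1 of the 6 livers ended both calls (exact sign-flip adjusted p = 0.0833), because 5 livers cannot give an exact p below the threshold.

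**Figure D3:**
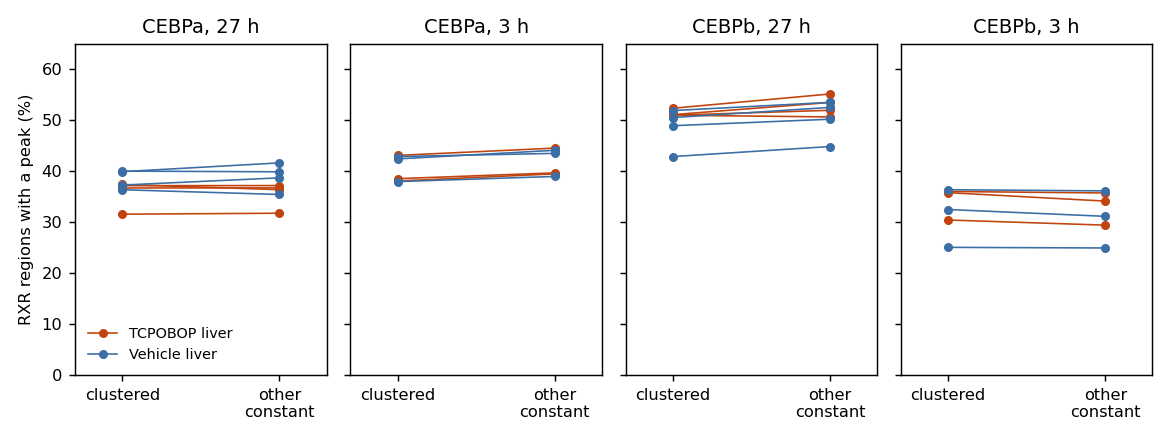
Percent of RXR regions with a CEBPa or CEBPb peak in each liver (points joined by a line), at the 876 clustered regions and at the 11324 other constant regions, for TCPOBOP livers (red) and vehicle livers (blue). The lines are nearly flat, and livers differ more from each other than the region sets do.

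CEBP calls varied with the distance to the nearest member. These bins were looked at after their values were seen and carry no test. The 180 members whose nearest neighbour lay over 1 and up to 3 kb away had the fewest CEBP calls. CEBPb at 27 h was called at 42.4 ± 2.14% of them (SD, n = 8 livers), against 52.6 ± 3.42% of the 116 members with a nearest gap of at most 1 kb, 49.7 ± 3.28% of the 299 at 3 to 6.25 kb and 54.1 ± 3.94% of the 281 at 6.25 to 12.5 kb. The bin of 1 to 3 kb was lower than each of the other 3 in all 8 livers for CEBPb at 27 h and in all 6 livers for CEBPa at 3 h. All livers share the same 180 regions, so the SD and these counts show only how alike the livers are.

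For CEBPa at 27 h that bin was lower in 7 of 8 livers against each of the other 3, with a mean of 34.7 ± 2.16% against 37.2%, 37.4% and 38.3% in the same order of bins. For CEBPb at 3 h it was lower in 5, 6 and 6 of 6 livers, with a mean of 28.8 ± 3.79%. Of its 180 members, 78 (43.3%, exact 95% binomial interval 36.0% to 50.9%) had no CEBP peak in any library. Up to 1 kb this was 31.0% of members (22.8% to 40.3%), at 3 to 6.25 kb 33.8% (28.4% to 39.4%) and at 6.25 to 12.5 kb 27.4% (22.3% to 33.0%). Only the interval at 6.25 to 12.5 kb did not overlap that of the 1 to 3 kb bin. The 573 other constant regions with a nearest gap of 1 to 3 kb had no CEBP peak in 33.2% of cases (29.3% to 37.2%, again overlapping), and CEBPb at 27 h was called at 52.7 ± 2.91% of them. These members also had the narrowest RXR peaks, with a median of 363 bp against 434 bp at 6.25 to 12.5 kb, and other constant regions of the same 2 bins had medians of 370 and 433 bp. The part of width in the calls was not tested.

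**Figure D4:**
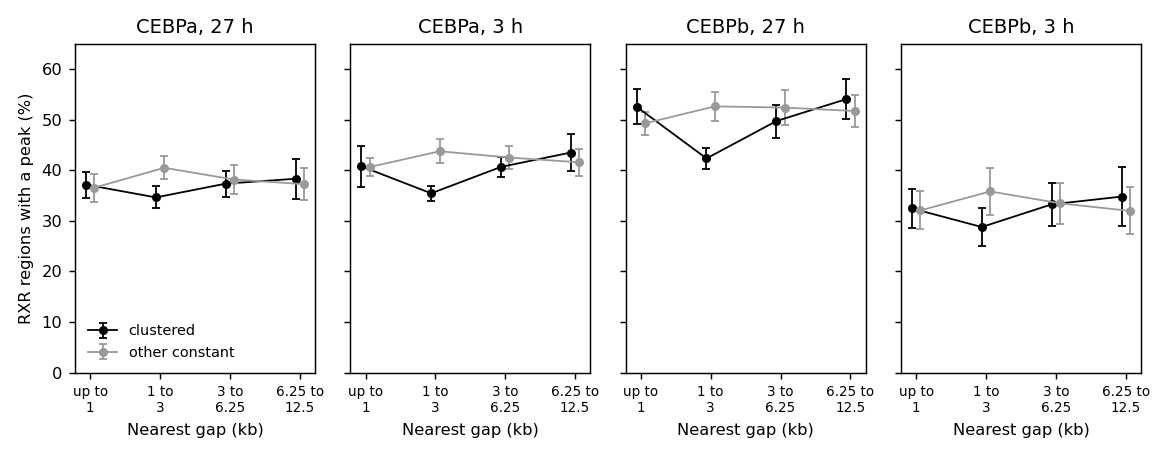
Mean percent of RXR regions with a CEBPa or CEBPb peak, with SD over the 8 livers at 27 h or the 6 livers at 3 h (bars), by the gap in kb to the nearest constant RXR region. Clustered regions (black) dip at 1 to 3 kb in all 4 panels, to 42.4% for CEBPb at 27 h, and other constant regions (grey) show no such dip.

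The DNA between members held more CEBP peaks than the DNA beside the clusters. Peaks were counted by midpoint in the 681 gaps (4085430 bp) and in the flanks of up to 12.5 kb on each side of the clusters (4854778 bp), both of which hold no constant RXR region. CEBPa at 27 h had 4.97, 4.82, 5.07 and 3.55 peaks per 100 kb of gap in TCPOBOP livers, and 4.63, 5.38, 5.21 and 4.87 in vehicle livers. In flanks it had 2.95, 3.15, 3.07 and 2.33 peaks per 100 kb in TCPOBOP livers, and 2.97, 3.69, 3.58 and 3.05 in vehicle livers. The lowest gap value of the 8 livers, 3.55, lay below the highest flank value, 3.69, but within each liver the gaps were higher.

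The mean of CEBPa at 27 h was 4.81 ± 0.562 in gaps and 3.10 ± 0.418 in flanks (SD, n = 8), a difference of 1.72 ± 0.251 peaks per 100 kb (exact two-sided sign-flip p = 0.00781, the smallest possible with 8 livers; adjusted p = 0.0156). CEBPb at 27 h had 7.25 ± 0.533 peaks per 100 kb in gaps and 5.56 ± 0.502 in flanks, a difference of 1.69 ± 0.262 with the same p and adjusted p. At 3 h the differences were 1.40 ± 0.217 for CEBPa (4.78 against 3.37) and 1.05 ± 0.169 for CEBPb (3.12 against 2.07), each with an exact p of 0.0312, the smallest possible with 6 livers, and an adjusted p of 0.0312. Gaps were higher in 8 of 8 livers for both factors at 27 h and in 6 of 6 at 3 h. All livers share the same gaps and flanks, so these p-values measure only how alike the livers are.

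RXR peaks that were not constant showed no such excess. They averaged 3.16 ± 0.763 per 100 kb in gaps and 3.39 ± 0.737 in flanks at 27 h (SD, n = 8), and 4.51 ± 1.36 and 4.70 ± 1.69 at 3 h (SD, n = 6). Since these lists made the clusters, these values are a description. Input libraries had 0 to 2 peaks each in all gaps and 0 to 5 in all flanks.

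**Figure D5:**
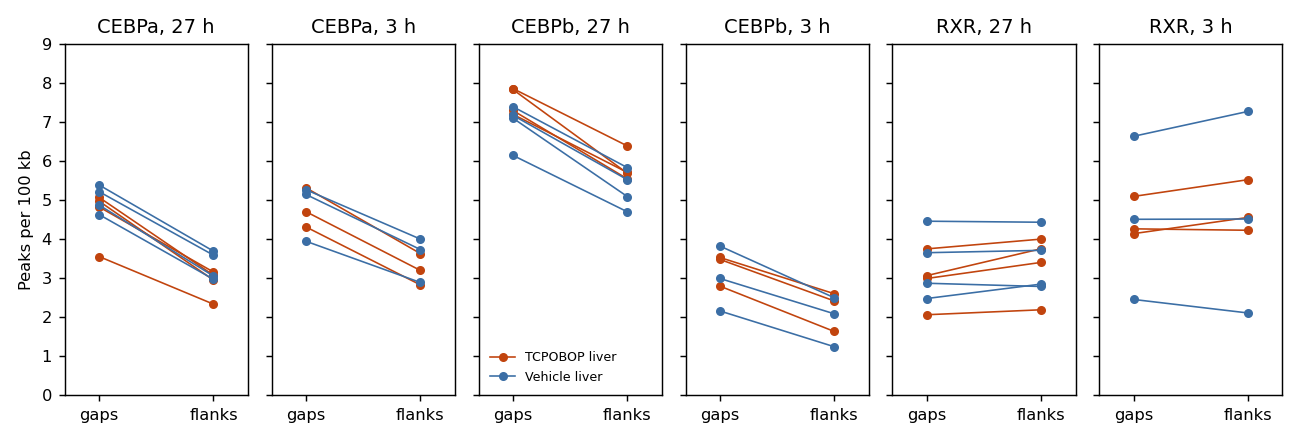
Peaks per 100 kb in each liver (points joined by a line), in gaps between clustered RXR regions and in the flanks of clusters, for CEBPa, CEBPb and non-constant RXR peaks at 27 h and 3 h, in TCPOBOP livers (red) and vehicle livers (blue). Every CEBP line is lower at the flanks, while RXR lines are near level.

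The same places recur over livers, so the number of separate places behind these values is smaller. After merging CEBPa peaks of all 14 libraries, 72 regions in gaps that touched no constant RXR region had a peak in all 14, or 1.76 per 100 kb, against 59 in flanks, or 1.22 per 100 kb. For CEBPb 54 such regions lay in gaps (1.32 per 100 kb) and 40 in flanks (0.824 per 100 kb). Regions called in 1 to 13 libraries were closer, with 6.56 in gaps against 6.22 in flanks per 100 kb for CEBPa and 9.23 against 8.86 for CEBPb. The 72 CEBPa regions lay in 65 clusters and the 54 CEBPb regions in 51. A non-constant RXR region was touched by 43 of the 72 CEBPa regions in gaps (59.7%), against 42 of 59 in flanks (71.2%), and by 34 of the 54 CEBPb regions in gaps (63.0%), against 31 of 40 in flanks (77.5%).

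Per cluster the excess was uneven. CEBPa at 27 h had a higher density in the gaps than in the flanks of the same cluster in 115 of 195 clusters and a lower one in 72. For CEBPb at 27 h the numbers were 118 and 76, for CEBPa at 3 h 112 and 71, and for CEBPb at 3 h 103 and 67. The excess is thus a mean over the clusters, with the opposite order in more than 1 in 3 of them. Gaps lie closer to constant regions than flanks do; at the same distance from a constant region, in bins of 1.25 kb up to 6.25 kb, the differences were 1.15, 0.875, 0.941 and 0.557 peaks per 100 kb in the order CEBPa 27 h, CEBPa 3 h, CEBPb 27 h and CEBPb 3 h, each higher in gaps in every liver. The bins were uneven. In the 1.25 kb nearest to a constant region the differences were 0.679, 0.456, 0.0821 and -0.307 in the same order, so that CEBPb at 3 h was lower in gaps there. In the fourth bin they were 2.78, 2.64, 3.88 and 2.296. Non-constant RXR peaks at 27 h were few there in flanks and in gaps alike. Flanks held 1.99 per 100 kb against 3.08 to 3.91 in the other 4 bins, and gaps 2.11 against 2.73 to 3.96.

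Non-constant RXR regions also lay between members. There were 365 in gaps (8.93 per 100 kb) and 485 in flanks (9.99 per 100 kb). In gaps, 33 of them (9.04%) had a peak in 13 of the 14 lists and 81 (22.2%) in 1 list only. These shares were 7.84% and 27.6% in flanks, and 5.28% and 39.0% over all non-constant RXR regions. A cluster held a median of 2 such regions and at most 8, and 38 clusters held none.

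TCPOBOP and vehicle livers were then compared at the 876 members. CEBPa at 27 h was called at 35.8 ± 2.77% of members in TCPOBOP livers and 38.4 ± 1.85% in vehicle livers (two-sided exact permutation test with n = 4 each, ± SD; p = 0.229, adjusted over 4 p = 0.457). CEBPb at 27 h was called at 51.4 ± 0.668% in TCPOBOP livers and 48.6 ± 3.98% in vehicle livers (± SD; exact permutation p = 0.200, adjusted p = 0.457). The ranges overlapped for both factors. The lowest p that 4 against 4 livers can give is 0.0286. Adjusted over the 4 combinations it stays above 0.05 even if both factors at 27 h reach it. These tests could therefore not pass, and they do not show that the treatments are alike.

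At 3 h CEBPa was called at 39.95 ± 2.78% of members in TCPOBOP livers and 41.1 ± 2.71% in vehicle livers (exact permutation p = 1), and CEBPb at 34.1 ± 3.17% in TCPOBOP livers and 31.4 ± 5.74% in vehicle livers (exact permutation p = 0.700; SD, n = 3 each). Groups of 3 cannot give a p below 0.1. List lengths also differed between these groups. The difference of -2.68 points for CEBPa at 27 h was 0.717 points when each share was taken relative to the other constant regions of its library, and 0.114 points with lists of equal length. The difference of 2.80 points for CEBPb at 27 h was 0.254 points in the first of these settings and 0.0856 points in the second. The difference of 2.78 points for CEBPb at 3 h was 0.426 points in the first and -0.723 points in the second.

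Few members gained or lost a CEBP call altogether. Gained here means a peak in every TCPOBOP library and no vehicle library of a factor and time, and lost the reverse; such counts carry no test. CEBPb at 27 h was gained at 3 members (0.342%), against 0.156% of all constant regions and 0.353% of all 91123 CEBPb regions of that time, and lost at 0, against 0.0082% and 0.0373%. The 3 were chr4:149174060-149174538, chr18:39177180-39177877 and chr19:40301024-40301629. At the last, CEBPb was called in 4 of 4 TCPOBOP livers and 0 of 4 vehicle livers at 27 h and in none at 3 h, while CEBPa was called in 2 TCPOBOP and 2 vehicle livers at 27 h and in 2 of each at 3 h.

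CEBPb at 3 h was gained at 4 members (0.457%), against 0.262% of all constant regions and 0.59% of all 39346 CEBPb regions of that time. The 4 were chr9:34946577-34947486, chr11:86409597-86410062, chr12:106089944-106090298 and chr16:32666107-32667076. Each of these 4 had CEBPb peaks in all 8 livers at 27 h, of both treatments. One member, chr6:90703695-90704370, lost CEBPb at 3 h (0.114%, against 0.0738% of constant regions and 0.0813% of CEBPb regions), and it too had CEBPb in all 8 livers at 27 h. The calls at these 5 members thus differed between the treatments at 3 h and not at 27 h. The CEBPb lists held 39275 to 55513 peaks at 27 h and 11899 to 22984 at 3 h.

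CEBPa at 27 h was lost at 1 member, chr2:126371032-126371502 (0.114%, against 0.123% of constant regions and 0.204% of all 62666 CEBPa regions of that time). There it was called in 0 of 4 TCPOBOP and 4 of 4 vehicle livers, while CEBPb was called in all 8 of the same livers. CEBPa at 27 h was gained at 0 members (against 0.0246% and 0.0367%). At 3 h CEBPa was gained at 1 member, chr6:72520416-72521199 (0.114%, against 0.148% of constant regions and 0.319% of all 55112 CEBPa regions), and lost at 0 (against 0.213% and 0.57%). At chr6:72520416-72521199 CEBPb was called at 3 h in 1 of 3 TCPOBOP and 0 of 3 vehicle livers, and at 27 h CEBPa was called in none of the 8 livers.

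RXR at members was compared between treatments only by the width of its peaks, because RXR was called at every member in every library by the choice of members. The number of bases covered by RXR peaks was fitted on a log2 scale with limma over all 12200 constant regions, after centring each library on its median. No member passed an adjusted p of 0.05. At 27 h the counts were 0 wider and 0 narrower members, against 0.0328% and 0.0082% of all constant regions (4 wider and 1 narrower), and at 3 h 0 and 0, against 0% and 0%. At an unadjusted p under 0.05 in limma, 31 members were wider and 32 narrower at 27 h, where the background was 4.12% and 3.91% of all constant regions. At 3 h 17 were wider and 16 narrower, where the background was 1.98% and 1.97%. The lowest adjusted p of a member was 0.231 at 27 h.

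The median log2 change of members was 0.0036 at 27 h (quartiles -0.11 and 0.13) and -0.011 at 3 h (quartiles -0.12 and 0.11), and 50.7% and 47.3% of members were wider in TCPOBOP livers. Over other constant regions the medians were 0.0016 and -0.014. On simulated widths with 100 regions changed by each size at 27 h, the same fit recovered 15% of regions changed by 0.5 on the log2 scale and 81% of those changed by 1.0, so most changes of the smaller size would be missed.

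The 2 members with the lowest p, neither of which passed, were chr17:85088124-85088667 and chr11:98821126-98822092. At chr17:85088124-85088667 RXR peaks covered 469, 344, 362 and 452 bp in the TCPOBOP livers of 27 h, and 264, 254, 262 and 309 bp in the vehicle livers. The 2 groups did not overlap, but the log2 change of 0.59 (SE 0.12) had an adjusted p of 0.231 in limma. At 3 h the same region had 318, 253 and 259 bp in TCPOBOP livers, and 338, 300 and 282 bp in vehicle livers, a log2 change of -0.20 (SE 0.14, adjusted p = 0.999 in limma).

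At chr11:98821126-98822092 RXR peaks covered 629, 817, 892 and 795 bp in the TCPOBOP livers of 27 h, and 309, 283, 288 and 604 bp in the vehicle livers, again without overlap between the groups. The log2 change was 1.16 (SE 0.25, adjusted p = 0.247 in limma). This region lies in a cluster of 6 in which 4 members had no CEBP peak in any library. CEBPb was called there in 2 of 4 TCPOBOP and 1 of 4 vehicle livers at 27 h, and CEBPa in none. A test of the treatment difference between 27 h and 3 h found 0 members past the threshold in limma. At an unadjusted p under 0.05 in limma there were 21 and 17 of the 876 members in the 2 directions. The background was 279 and 266 of all 12200 constant regions.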

How the data were processed

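Per the labels' protocols, chromatin of single frozen livers was immunoprecipitated with antibodies to RXRa, CEBPa and CEBPb. The submitters' processing notes name Bowtie2 2.3.2, MACS2 and mm9, and the settings of MACS2 were not given in the sources used here. For each library 1 peak list was deposited, with the position and name of each peak and no score, so depth and peak strength are unknown and peak width is the only value per peak. The 46 lists were used as deposited, with starts raised by 1.

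The members and the lists compared were chosen with earlier results of these data known. The labels gave the factor, treatment and time of each library. At most 0.0359% of peaks were identical in the 54 pairs of lists of a group, so no list was a copy. A call is a peak that shares at least 1 bp with a region. Shares and densities were compared within livers by exact sign-flip tests and between treatments by exact permutation tests, each two-sided with Benjamini-Hochberg adjustment over 4 combinations. These p-values measure the spread between livers. RXR widths were fitted with limma 3.58.1 (moderated test with trend, 4 groups, R 4.3.3), adjusted over 12200 regions. Other steps used Python 3.11.15, numpy 2.4.6 and scipy 1.17.1. The functions for merging peaks, overlap of at least 1 bp, covered bases, joining regions and the exact tests, and the limma fit, were tested on simulated data.

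Named regions were the 10 clusters with the most members, the 3 longest, the 3 with the smallest median gap, up to 3 without a member that had either CEBP factor in all 14 libraries, the 2 members with the lowest p in RXR width at 27 h, and members that gained or lost a CEBP factor. Single members of named clusters were described as examples. Alternatives were the join distance, the cluster size, constancy, overlap, list length, region width, input peaks, flanks, centring, the replicate number as a block and leaving out each library; those chosen after the data were seen are named with their values. Gene names, motifs and sequences were not analysed here.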

Additional observations from a re-analysis of the deposited data

Results flagged for a closer look

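In groups of 4 livers at 27 h, 22 sets of values were searched for a liver far from the other 3, and chance flags about 1 in 20. In 4 sets 1 liver stood apart. CEBPa in TCPOBOP liver D4 was called at 31.6% of members, against 36.8% to 37.4% in the other TCPOBOP livers, and had 3.55 peaks per 100 kb of gap, against 4.82 to 5.07. Its list was the shortest of that group, with 20396 peaks against 28818 to 29066. For CEBPa in TCPOBOP liver D2 the share at members was 1.02 points above that at other constant regions, against -0.188 to -0.0160 points in the other 3. CEBPb in TCPOBOP liver D2 was called at 52.4% of members, against 51.0% to 51.1%, and its list of 55513 peaks was the longest. The part of list length in these values was not tested.

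Chromosome X was not used in the clusters. It held 108 constant RXR regions, of which 0 lay on an input peak. Joined by the same rule, they formed groups of at most 2 and 0 clusters of 4 or more.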

How the results depend on the processing

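Gap and flank densities differed in the same direction and passed the threshold under every other flank, margin, distance and list setting run. This includes flanks of 6.25 kb, the same distance from a constant region and leaving out peaks that overlap a constant region, which were chosen after the data were seen; with the last the differences were 1.53 and 1.21 (CEBPa at 27 h and 3 h) and 1.43 and 1.00 (CEBPb) peaks per 100 kb. CEBPb at 3 h was 0.569 with lists of equal length and 0.557 at the same distance. Without single livers they ranged from 1.67 to 1.79 and 1.35 to 1.47 for CEBPa and from 1.63 to 1.73 and 0.996 to 1.08 for CEBPb; at 3 h, 5 livers cannot pass (exact sign-flip adjusted p = 0.0625).

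Shares at members minus other constant regions depended on the settings, and the cause was not tested. Values past the threshold occurred in both directions. In points, CEBPa at 27 h passed at -5.39 with gaps of at most 6.25 kb, 2.29 with 25 kb, 0.462 with clusters of 3 or more, -3.27 with 5 or more and -0.863 with at least 13 of 14 RXR lists. It did not pass at 0.234 with lists of equal length, 0.00894 within quartiles of RXR width and 0.190 against regions with no other within 12.5 kb (chosen after the data were seen). It ranged from -0.329 to 0.0626 without single livers, and was above 0 without vehicle replicate 2 or 3. CEBPa at 3 h did not pass at -1.13 with an overlap of 0.5, -1.21 with equal lists and -0.406 with clusters of 3 or more, nor without single livers (-1.33 to -1.12). It passed at -8.12 with 6.25 kb, -4.71 with clusters of 5 or more and -2.11 with at least 13 lists, and in the other direction at 1.97 with 25 kb. CEBPb at 27 h did not pass at -1.45 with an overlap of 0.5 and -1.51 with equal lists. It passed without single livers (-1.86 to -1.41). It also passed at -8.99 with 6.25 kb, -4.40 with clusters of 5 or more, -2.53 with at least 13 lists and -0.827 with clusters of 3 or more, and in the other direction at 2.16 with 25 kb. CEBPb at 3 h did not pass at 0.95 with an overlap of 0.5 and 0.306 with equal lists, nor without single livers (0.597 to 0.905). It passed at 2.66 with 25 kb, 1.34 with clusters of 3 or more and 1.31 against regions with no other within 12.5 kb. In the other direction it passed at -6.85 with 6.25 kb, -2.19 with clusters of 5 or more and -0.295 with at least 13 lists.

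TCPOBOP minus vehicle shares at members passed under no setting run, and with these group sizes and adjustment over 4 combinations none could. CEBPa at 27 h was 0.114 with equal lists and 0.717 relative to other constant regions; CEBPb at 27 h was 0.0856 and 0.254 in these settings; CEBPb at 3 h was -0.723 with equal lists and -0.342 without vehicle replicate 45. Without single livers the differences ranged from -3.36 to -1.30 and -2.78 to -0.266 for CEBPa at 27 h and 3 h, and from 0.904 to 3.91 and -0.342 to 5.31 for CEBPb.

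Gained and lost members of the 876 were 4 and 11 (CEBPa 27 h), 23 and 38 (CEBPa 3 h), 21 and 6 (CEBPb 27 h) and 42 and 14 (CEBPb 3 h) when 1 library of each group could differ. Of all constant regions, 0.418% were then gained and 2.11% lost for CEBPa at 27 h, and 3.02% gained for CEBPa at 3 h. No background is given here for the other counts, and none was tested. Leaving out 1 library can only add to the counts of the main setting, which then ranged from 0 to 1 and 1 to 3, 1 to 4 and 2 to 5, 3 to 6 and 0 to 1, and 5 to 12 and 1 to 3. For CEBPa at 27 h, 0.0246% to 0.0738% of all constant regions were then gained and 0.156% to 0.303% lost. Clusters and members numbered 37 and 157 with gaps of at most 6.25 kb, 502 and 2483 with 25 kb, 581 and 2034 with 3 or more regions, 56 and 320 with 5 or more, and 342 and 1601 with at least 13 lists. Without 1 RXR list there were 194 to 231 clusters with 872 to 1053 members. RXR width gave 0 members under every setting run (lowest adjusted p of a member 0.0594 in limma).

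Same-numbered livers did not deviate together (correlations of deviations from -0.0911 to 0.118). With the replicate number as a block, the differences in share were -2.68, -1.18, 2.80 and 2.78 points (exact sign-flip p = 0.375, 1, 0.250 and 0.750). An exact sign-flip test cannot give a p below 0.125 with 4 pairs or below 0.25 with 3 pairs. No share could therefore pass with the block. In RXR width 0 members changed with the block. Depth is unknown, which limits every statement about a missing peak.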
